A study of Caenorhabditis elegans with 8 samples.

Results

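Aldehyde dehydrogenases and the alcohol dehydrogenase gene sodh-1 were examined in L4 worms exposed to an organic peroxide. The members were taken by name: alh-1, alh-2, alh-3, alh-4, alh-5, alh-6, alh-8, alh-9, alh-12 and sodh-1, which makes 10 of the 42048 gene symbols in the count table. RNA was sequenced from the wild-type strain N2 and from mutants homozygous for the null allele nr2041 of nhr-49, which lack the nuclear hormone receptor NHR-49 in all tissues. Worms of both genotypes grew on OP50 bacteria to the L4 stage and were then left untreated or exposed to 7.5 mM tert-butyl hydroperoxide (tBOOH) for 4 hr. Each of the 4 groups has 2 libraries, numbered 1 and 3 in the labels, and the design asks how these genes respond to tBOOH and whether the response or the basal level differs without nhr-49.

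Aldehyde dehydrogenases oxidize reactive aldehydes to acids with NAD or NADP as the acceptor of electrons. Such aldehydes arise when peroxides attack membrane lipids, and they also arise as ordinary intermediates when amino acids, fatty alcohols and vitamins are broken down. In C. elegans, alh-6 encodes the pyrroline-5-carboxylate dehydrogenase of proline breakdown, and alh-8 acts in the shunt that breaks down propionate when vitamin B12 is low. Alcohol dehydrogenases supply aldehydes from alcohols, and sodh-1 is known in worms for its part in ethanol metabolism.

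The 8 libraries held from 2157766 to 5852727 counts each. Levels are given in CPM, the count of a gene relative to the TMM-scaled total of its library, and a floor of 3 counts stands for 0.508 to 1.55 CPM. Reads on nhr-49 itself were 298 to 648 per wild-type library and 41 to 140 per mutant library. Both nhr-49 libraries numbered 3 stood apart: the summed level of 6 yolk protein genes was 833 and 3560 CPM there, against 23569 to 85701 CPM in the other 6 libraries, and 5 oocyte genes summed to 369 and 307 CPM against 1275 to 2861 CPM. Calls that change without them are given with that value. The worms were sequenced whole, so that fewer cells of a type and less RNA per cell cannot be told apart.

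Of the 10 genes, 9 had counts and all 9 passed the filter of CPM above 1 in at least 2 libraries, together with 14334 genes in all. alh-2 had 0 counts in all 8 libraries, which allows at most 0.508 to 1.55 CPM per library and covers counting error only. The annotation of WBcel235 places alh-1, alh-9 and alh-12 on chromosome III, alh-6 and alh-8 on chromosome II, alh-3 on chromosome IV, and alh-2, alh-4 and alh-5 on chromosome V. The symbol sodh-1 is not in the annotation used here, and it is given without an identifier. Whether another gene overlaps sodh-1 was therefore not assessed. Groups were compared by an exact test in edgeR, p-values were adjusted over the 14334 genes (Benjamini-Hochberg), and a gene was called at an adjusted p under 0.05.

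tBOOH raised sodh-1 in both genotypes, and sodh-1 was lower in nhr-49 worms than in wild-type worms with and without tBOOH. In untreated wild-type worms sodh-1 stood at 16.6 and 11.1 CPM, and after tBOOH at 205 and 127 CPM. The treated wild-type libraries were far above every other library. In nhr-49 worms sodh-1 stood at 3.63 and 1.12 CPM without tBOOH, from 7 and 3 counts, and at 16.6 and 15.6 CPM with tBOOH. The treated mutants thus reached the range of the untreated wild-type worms, and the untreated mutants were below all other libraries.

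**Figure D1:**
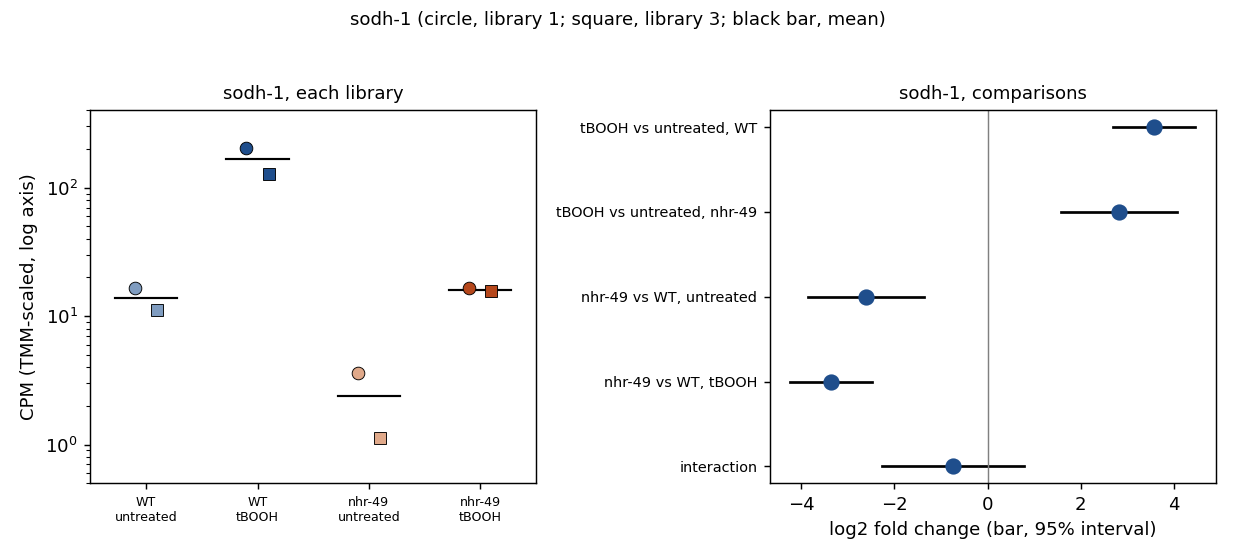
Left, level of sodh-1 in each library in TMM-scaled CPM on a log axis, by group, with the mean of the 2 libraries as a black bar. Right, log2 fold change of sodh-1 in each comparison with its 95% interval; treated wild-type libraries are at 205 and 127 CPM, and the interval of the interaction, from -2.28 to 0.78, spans 0.

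The response of sodh-1 to tBOOH was 12-fold in wild-type worms (log2 fold change 3.58, SE 0.45, edgeR adjusted p = 2.03e-10). In nhr-49 worms it was 7.12-fold (log2 fold change 2.83, SE 0.64, edgeR adjusted p = 0.000433). The call and the size of the mutant response, though not its direction, depended on the untreated library numbered 3, with 3 counts. Without that library the log2 fold change was 2.14, and without both mutant libraries numbered 3 it was 2.18. Both of these fits, which leave 1 library in a group, lost the call. Without the untreated library numbered 1 the log2 fold change was 3.81. With dispersions from the 4 mutant libraries alone the edgeR adjusted p was 0.0526. That setting called 1.80% of all genes, against 4.63% in the main fit. The wild-type response was called without any one of its libraries.

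Between genotypes, sodh-1 was 10.3-fold lower in nhr-49 worms with tBOOH (log2 fold change -3.36, SE 0.45, edgeR adjusted p = 4.15e-09). This difference was called under every alternative tried, including without both mutant libraries numbered 3 (log2 fold change -3.32). Without tBOOH sodh-1 was 6.11-fold lower (log2 fold change -2.61, SE 0.64, edgeR adjusted p = 0.00386). That call was lost without the wild-type library numbered 1 (-2.29, edgeR adjusted p = 0.322), without the mutant library numbered 3 (-1.92, edgeR adjusted p = 0.433) and without both treated and untreated mutant libraries numbered 3 (-1.92, edgeR adjusted p = 0.144), and without the mutant library numbered 1 the log2 fold change was -3.59. The call was also lost under the quasi-likelihood test (edgeR adjusted p = 0.186), which called 0.140% of all genes against 0.998% in the main fit.

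The difference between the responses of sodh-1 in the 2 genotypes was tested as an interaction by the quasi-likelihood test of edgeR. It came to -0.75 on the log2 scale (95% interval -2.28 to 0.78, adjusted p = 1.0), so that neither an equal response nor one up to 2.28 log2 units smaller in the mutant was outside the interval. Averaged over both treatments, a contrast added after the data were seen, sodh-1 was 7.93-fold lower in nhr-49 worms (log2 difference -2.99, SE 0.39, edgeR adjusted p = 0.00639). The averaged difference, where 0.237% of all genes were called lower, ranged from -3.48 to -2.62 when libraries were left out, with edgeR adjusted p from 0.0114 to 0.0390. The genotype difference of sodh-1 was therefore called across treatments in every such set of libraries, while the untreated comparison taken alone was not.

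The 3 genes whose log2 CPM followed sodh-1 most closely over the 8 libraries were tag-321 (Pearson r = 0.984), ZK105.1 (r = 0.979) and C03A7.13 (r = 0.978). These correlations are descriptions over 4 groups that share a treatment and a genotype contrast.

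The aldehyde dehydrogenases did not share the response of sodh-1. None of the 8 measured genes was called with tBOOH in wild-type worms, where sodh-1 was the 1 member called higher and 2.2% of all genes were called higher and 3.14% lower. None was called in nhr-49 worms either, where 2.72% of all genes were called higher and 1.91% lower. By levels alone, both treated libraries were below both untreated libraries for 6 of the 8, alh-3, alh-5, alh-6, alh-8, alh-9 and alh-12, in wild-type worms, a pattern that 27.5% of all genes showed. The same 6 genes were below in nhr-49 worms, where 18.9% of all genes showed it. The share of all genes below within both genotypes was not counted. All 4 treated libraries were below all 4 untreated ones for 8.46% of all genes. The median log2 fold change over the 9 measured members was -0.61 for N2 and -0.44 for the mutant, beside 0.05 and 0.04 over the 14334 genes.

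**Figure D2:**
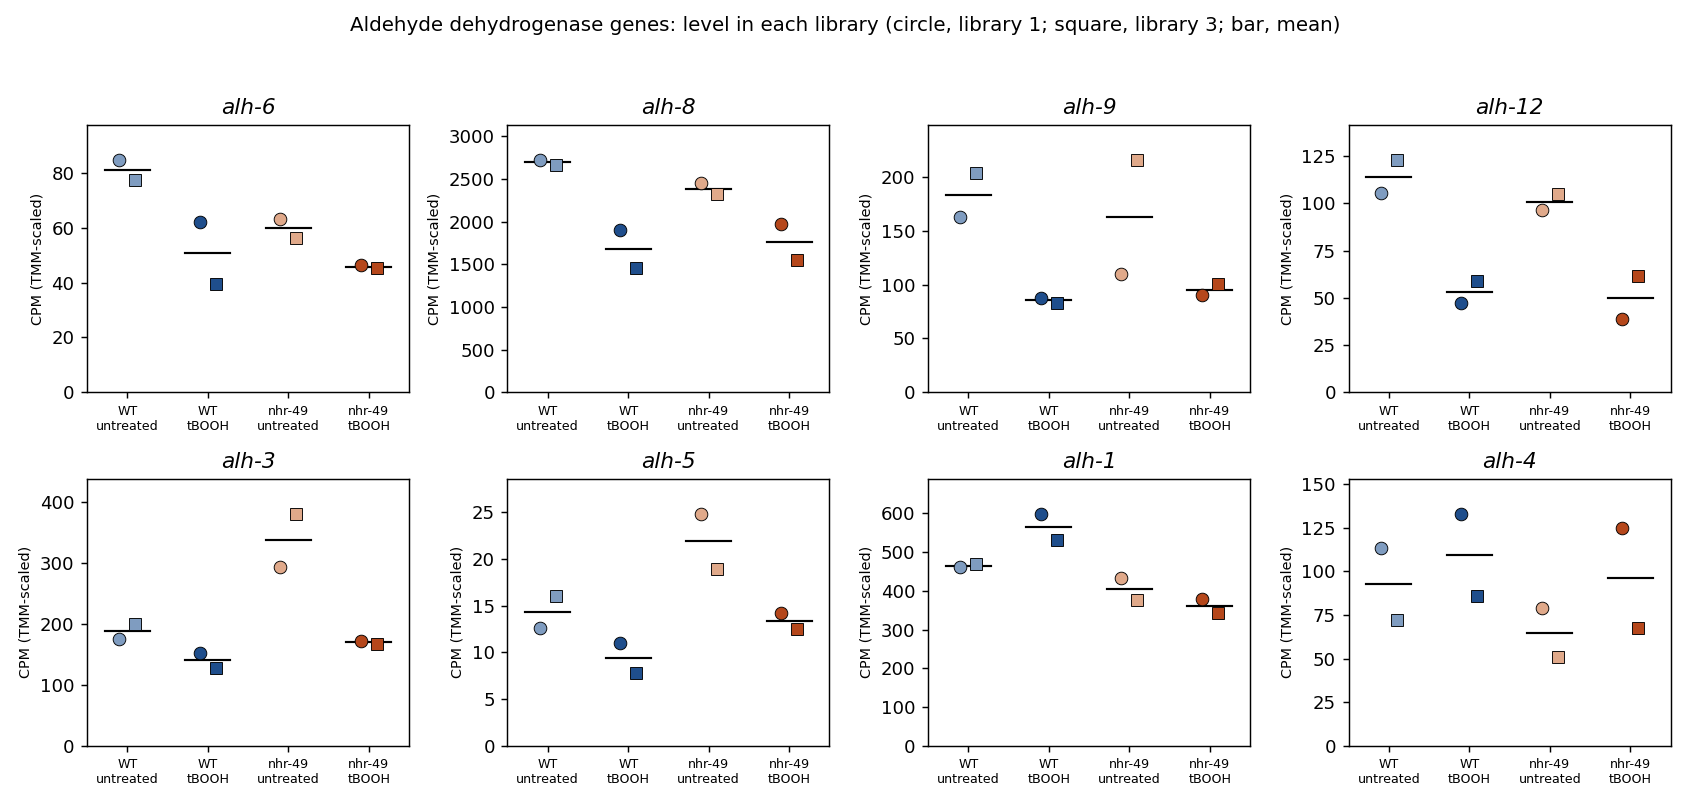
Level of each measured aldehyde dehydrogenase gene in TMM-scaled CPM, each axis from 0, in the 8 libraries by group; circles are libraries numbered 1, squares those numbered 3, and black bars the mean. All 4 treated libraries lie below all 4 untreated ones for alh-8, alh-9, alh-12 and alh-3, and alh-4, alh-6 and alh-8 are higher in library 1 than in library 3 in every group.

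alh-12, of the family that makes the precursor of carnitine, had the lowest estimates after tBOOH in both genotypes. It stood at 105 and 123 CPM in untreated and 47.2 and 59.1 CPM in treated wild-type worms. The mutants had 96.3 and 105 CPM without and 38.5 and 61.6 CPM with tBOOH. Treated and untreated libraries were well separated, and the genotypes were at like levels. The log2 fold change was -1.1 in wild-type worms (SE 0.37, edgeR adjusted p = 0.0584) and -1.01 in nhr-49 worms (SE 0.38, edgeR adjusted p = 0.116). Neither passed the threshold, although alh-12 did in wild-type worms under DESeq2 (adjusted p = 0.0333), and in nhr-49 worms without the treated library numbered 3 (edgeR adjusted p = 0.0497) or without both libraries numbered 3 (edgeR adjusted p = 0.0315).

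alh-9, the counterpart of the dehydrogenase of lysine breakdown, stood at 163 and 204 CPM in untreated and 88.1 and 83.4 CPM in treated wild-type worms. The untreated mutant libraries were far apart, at 110 and 216 CPM, and the treated ones were at 90.4 and 101 CPM. The 4 treated libraries were thus close to each other and the untreated mutants were spread. The log2 fold change was -1.1 in wild-type worms (SE 0.40, edgeR adjusted p = 0.101) and -0.78 in nhr-49 worms (SE 0.41, edgeR adjusted p = 0.377). In the mutants it rested on the untreated library numbered 3: with the other untreated library left out it was -1.18 (edgeR adjusted p = 0.0290), and without both libraries numbered 3 it was -0.29 (edgeR adjusted p = 0.855).

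alh-3, related to the 10-formyltetrahydrofolate dehydrogenases of folate metabolism, had its largest estimate in nhr-49 worms. There it stood at 294 and 382 CPM without and 173 and 168 CPM with tBOOH (log2 fold change -0.99, SE 0.34, edgeR adjusted p = 0.0801). Wild-type worms had 176 and 200 CPM without and 152.95 and 127 CPM with tBOOH (log2 fold change -0.42, SE 0.34, edgeR adjusted p = 0.618). The untreated mutants were above all other libraries. The response in nhr-49 worms passed the threshold under DESeq2 (adjusted p = 0.0345), where 5.81% of genes tested were called against 4.63% in the main fit. It also passed without the untreated library numbered 1 (log2 fold change -1.16), a fit whose only untreated mutant library is the one low in yolk and oocyte genes.

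alh-8, a methylmalonate-semialdehyde dehydrogenase, stood at 2721 and 2666 CPM in untreated and 1900.2 and 1456 CPM in treated wild-type worms. Mutant levels were 2451 and 2318 CPM without and 1973 and 1548 CPM with tBOOH. Every treated library was below every untreated one, by log2 fold changes of -0.68 (SE 0.38, edgeR adjusted p = 0.380) and -0.44 (SE 0.38, edgeR adjusted p = 0.718). A gene on the opposite strand, F13D12.8, overlaps alh-8, and reads from the 2 genes cannot be told apart if strand was not used in counting.

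alh-6, of proline breakdown, stood at 84.9 and 77.4 CPM in untreated and 62.3 and 39.4 CPM in treated wild-type worms. Mutant levels were 63.2 and 56.5 CPM without and 46.5 and 45.4 CPM with tBOOH. Treated libraries were below untreated ones within each genotype, but the untreated mutants overlapped the treated wild-type worms. The log2 fold changes were -0.67 (SE 0.36, edgeR adjusted p = 0.352) and -0.38 (SE 0.37, edgeR adjusted p = 0.771). alh-5, of the same family as the fatty aldehyde dehydrogenases, had few counts, from 41 to 84 per library. It stood at 12.7 and 16.1 CPM in untreated and 11 and 7.77 CPM in treated wild-type worms, and at 24.9 and 19.0 CPM without and 14.2 and 12.5 CPM with tBOOH in nhr-49 worms. Its log2 fold changes were -0.61 (SE 0.43, edgeR adjusted p = 0.556) and -0.71 (SE 0.43, edgeR adjusted p = 0.512).

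alh-1, the counterpart of the mitochondrial enzyme that oxidizes acetaldehyde, was higher after tBOOH in wild-type worms, at 599 and 530 CPM against 461 and 469 CPM. The mutants had 378 and 342 CPM with and 432 and 377 CPM without tBOOH, so that treated and untreated libraries overlapped. All 4 mutant libraries were below all 4 wild-type libraries, as for 3.47% of all genes. The log2 fold changes with tBOOH were 0.28 (SE 0.35, edgeR adjusted p = 0.796) and -0.17 (SE 0.35, edgeR adjusted p = 0.948). alh-4, a fatty aldehyde dehydrogenase, overlapped between treated and untreated worms in both genotypes. It stood at 113.2 and 72.2 CPM in untreated and 133 and 85.6 CPM in treated wild-type worms, and at 78.7 and 50.6 CPM without and 125 and 67.6 CPM with tBOOH in nhr-49 worms. For alh-4, and likewise for alh-6, alh-8 and sodh-1, the library numbered 1 was above the library numbered 3 in all 4 groups, as for 11.1% of all genes, and so were the summed yolk and oocyte genes. The part of yolk and oocyte content in the levels of these 4 genes was not tested.

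**Figure D3:**
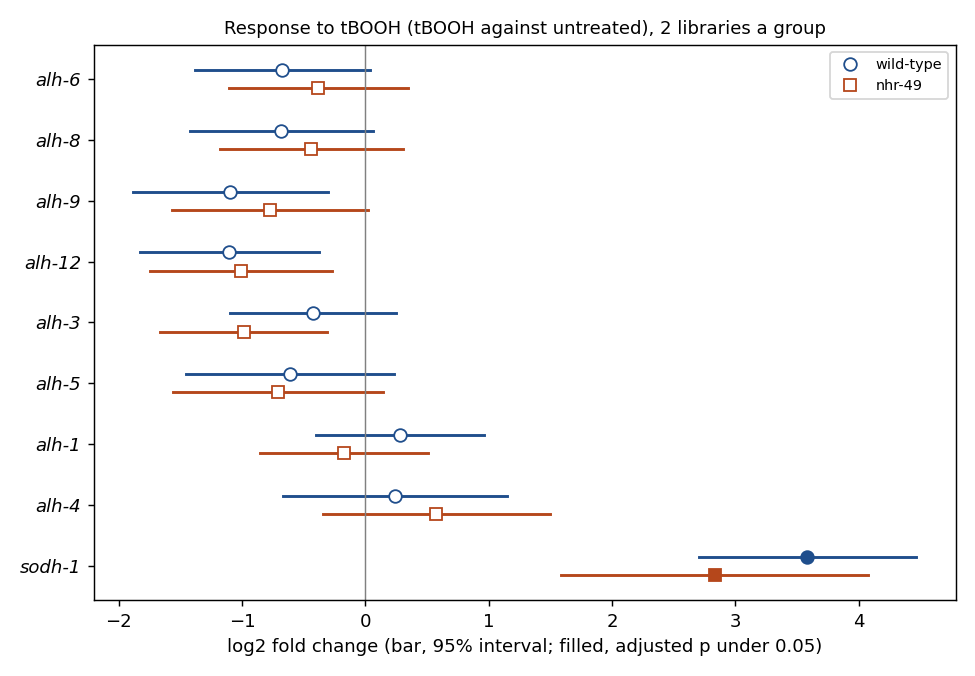
Log2 fold change with tBOOH against untreated for the 9 measured genes, with 95% intervals, in wild-type (circles) and nhr-49 worms (squares); filled symbols passed the threshold. sodh-1, at 3.58 and 2.83, stands to the right, and 6 aldehyde dehydrogenases have estimates below 0 in both genotypes with intervals that overlap between genotypes.

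The mean of both responses was tested over all 8 libraries with the quasi-likelihood test of edgeR, a contrast added after the data were seen. Beside sodh-1 (log2 fold change 3.21, adjusted p = 0.00202), it called 3 members lower, alh-12, alh-9 and alh-3, in a comparison that called 4.12% of all genes higher and 4.81% lower. Across both genotypes alh-12 was 2.08-fold lower with tBOOH (log2 fold change -1.06, SE 0.26, edgeR adjusted p = 0.0199). alh-9 was 1.91-fold lower (-0.94, SE 0.29, edgeR adjusted p = 0.0435) and alh-3 was 1.63-fold lower (-0.71, SE 0.24, edgeR adjusted p = 0.0398). For these 3 genes and for alh-8 (-0.56, SE 0.27, edgeR adjusted p = 0.0645), all 4 treated libraries were below all 4 untreated libraries, as for 8.46% of all genes.

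These calls changed when single libraries were left out, which leaves a group with 1 library. Fewer of all genes were called as well without any 1 wild-type library, and slightly fewer without the treated mutant library numbered 1. Whether the losses are particular to the members was not tested. alh-12 was lost when any 1 wild-type library was left out, with edgeR adjusted p of 0.0718 and 0.105 without the untreated library numbered 1 or 3 and 0.100 and 0.0752 without the treated one. alh-9 and alh-3 were lost when any 1 of the 8 libraries was left out other than the untreated mutant library numbered 1, with edgeR adjusted p from 0.0681 to 0.183 and from 0.0615 to 0.186. The direction was lower in every case. Without both mutant libraries numbered 3 the same 4 members were called. alh-3 was also lost after thinning to the smallest total (edgeR adjusted p = 0.0541), and alh-8 was called as well under DESeq2 (adjusted p = 0.0473), without a filter (edgeR adjusted p = 0.0256) and with a replicate block (edgeR adjusted p = 0.0334).

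Between genotypes no aldehyde dehydrogenase was called. sodh-1 was the 1 member called lower without tBOOH, where 0.195% of all genes were called lower and 0.802% higher, and the 1 called lower with tBOOH, where 0.509% were called lower and 1.79% higher. The largest estimate among the aldehyde dehydrogenases was that of alh-3 in untreated worms, 0.84 higher in nhr-49 on the log2 scale (SE 0.34, 95% interval 0.17 to 1.52, edgeR adjusted p = 0.403). alh-5 was 0.60 higher there (SE 0.43, edgeR adjusted p = 0.920) and 0.51 higher with tBOOH (SE 0.43, edgeR adjusted p = 0.851). alh-1 was lower in nhr-49 worms by a log2 fold change of -0.20 without tBOOH (SE 0.35, edgeR adjusted p = 1.0) and -0.65 with tBOOH (SE 0.35, edgeR adjusted p = 0.564). With tBOOH, the 95% intervals of alh-6, alh-8, alh-9 and alh-12 ran from -0.86 to 0.57, -0.67 to 0.81, -0.64 to 0.95 and -0.82 to 0.65.

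**Figure D4:**
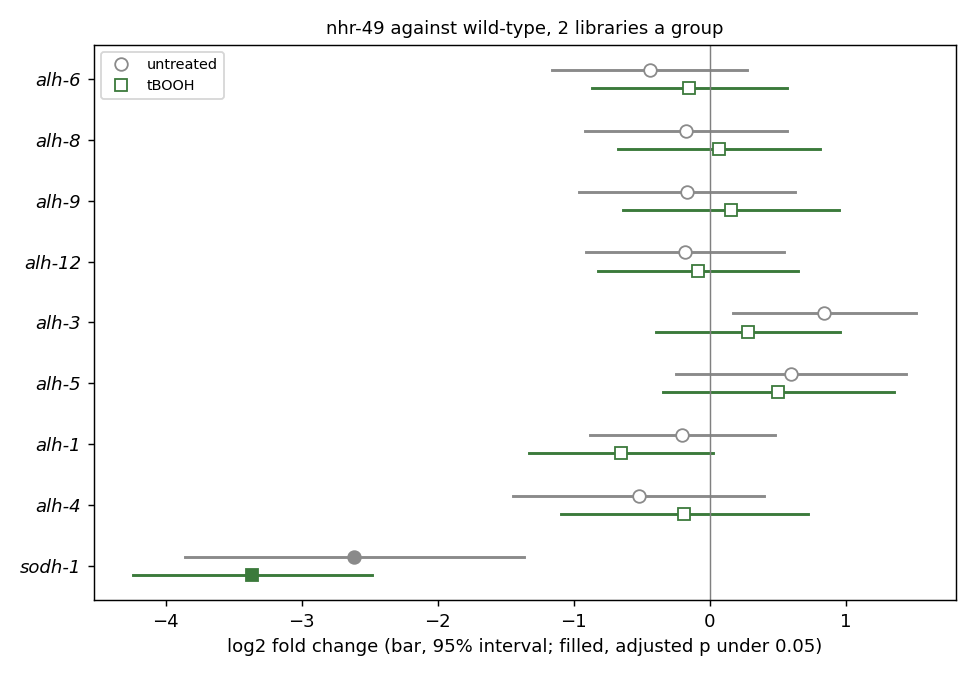
Log2 fold change of nhr-49 against wild-type worms for the 9 measured genes, with 95% intervals, in untreated (circles) and tBOOH-treated worms (squares); filled symbols passed the threshold. sodh-1, at -2.61 and -3.36, is the 1 gene away from 0 in both, and alh-3 in untreated worms is at 0.84.

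The response to tBOOH was not shown to differ between genotypes for any member. The interaction called 0 of the 9 members and 0% of all genes, with 0 members and 523 (3.65%) of all genes at an unadjusted p under 0.05. The likelihood ratio test of edgeR called 11 of all genes, DESeq2 called 16, and the quasi-likelihood test without a filter called 0.571% of 19796, with 0 members among them. Estimates for the aldehyde dehydrogenases ran from -0.56 for alh-3 (95% interval -1.52 to 0.39) to 0.34 for alh-4 (95% interval -0.96 to 1.63).

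Among the members themselves, levels over the 8 libraries followed each other most closely for alh-6 and alh-8 (Pearson r = 0.90), alh-3 and alh-5 (r = 0.88) and alh-9 and alh-12 (r = 0.86). alh-3 ran opposite to sodh-1 (r = -0.90), with the highest alh-3 and the lowest sodh-1 in untreated mutants. The libraries share treatment and genotype, and the values are descriptions.

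The genes that work beside the members in their pathways were taken from lists of known enzymes. In the propionate shunt, in which alh-8 follows acdh-1, ech-6, hach-1 (counted as F09F7.4) and hphd-1 (counted as Y38F1A.6), 1 of these 4 genes fell with tBOOH in wild-type worms and 0 rose. It was ech-6, an enoyl-CoA hydratase, at 1498 and 1305 CPM without and 604 and 454 CPM with tBOOH (log2 fold change -1.40, SE 0.41, edgeR adjusted p = 0.0234). In nhr-49 worms ech-6 stood at 1189.7 and 979 CPM without and 589 and 342 CPM with tBOOH (-1.22, SE 0.42, edgeR adjusted p = 0.0725). Their median was -0.88 in the wild type and -1.01 in the mutant. The wild-type call of ech-6 was lost without any 1 of the 4 wild-type libraries (edgeR adjusted p from 0.232 to 0.327) and under the quasi-likelihood test (edgeR adjusted p = 0.0635). In the mutants ech-6 was called under DESeq2 (adjusted p = 0.0182), with a replicate block (edgeR adjusted p = 0.0261) and without the treated library numbered 1 (edgeR adjusted p = 0.0294). In the canonical propionate pathway, which depends on vitamin B12, 0 of 4 genes were called in either genotype, with medians of -0.22 and -0.16.

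Of 4 genes of folate one-carbon metabolism beside alh-3, mel-32, a serine hydroxymethyltransferase, fell in both genotypes and 0 rose. It stood at 946 and 971 CPM without and 365 and 296 CPM with tBOOH in wild-type worms (log2 fold change -1.53, SE 0.39, edgeR adjusted p = 0.00562). Mutant levels were 698 and 580 CPM without and 277 and 170 CPM with tBOOH (-1.52, SE 0.39, edgeR adjusted p = 0.00751). All 4 treated libraries were below all 4 untreated ones, as for alh-3. The call was lost without any 1 of the 4 wild-type libraries in wild-type worms (edgeR adjusted p from 0.105 to 0.183) and without the treated library numbered 3 in nhr-49 worms (edgeR adjusted p = 0.160). In the mutants it was also lost with dispersions from the mutant libraries alone (edgeR adjusted p = 0.171). The medians over the 4 genes were -0.60 and -0.74.

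Of the 4 aldehyde dehydrogenase genes outside the member list, alh-13 fell in wild-type worms and alh-7, alh-10 and alh-11 were not called in any comparison. alh-13 encodes pyrroline-5-carboxylate synthase, which makes from glutamate the intermediate that alh-6 oxidizes back to glutamate and that pycr-1 reduces to proline. It stood at 285 and 327 CPM without and 37.2 and 95.5 CPM with tBOOH in wild-type worms (log2 fold change -2.21, SE 0.58, edgeR adjusted p = 0.0102). The mutants had 296 and 120 CPM without and 61.2 and 112 CPM with tBOOH (-1.27, SE 0.58, edgeR adjusted p = 0.277). The call was lost without either untreated library (edgeR adjusted p = 0.0742 and 0.190) or without the treated library numbered 1 (edgeR adjusted p = 0.420), under the quasi-likelihood test (edgeR adjusted p = 0.0934) and with a replicate block (edgeR adjusted p = 0.0518). Leaving out the treated library numbered 1 or 3 moved its log2 fold change to -1.68 or -3.11. In nhr-49 worms single libraries left out moved it between -0.48, without the untreated library numbered 1, and -1.78, without the untreated library numbered 3, and alh-13 was called without both libraries numbered 3 (-2.27, edgeR adjusted p = 0.0152). nhr-27 overlaps alh-13 on the opposite strand. The 2 other genes of proline metabolism, prdh-1 (counted as B0513.5) and pycr-1 (counted as M153.1), were not called.

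**Figure D5:**
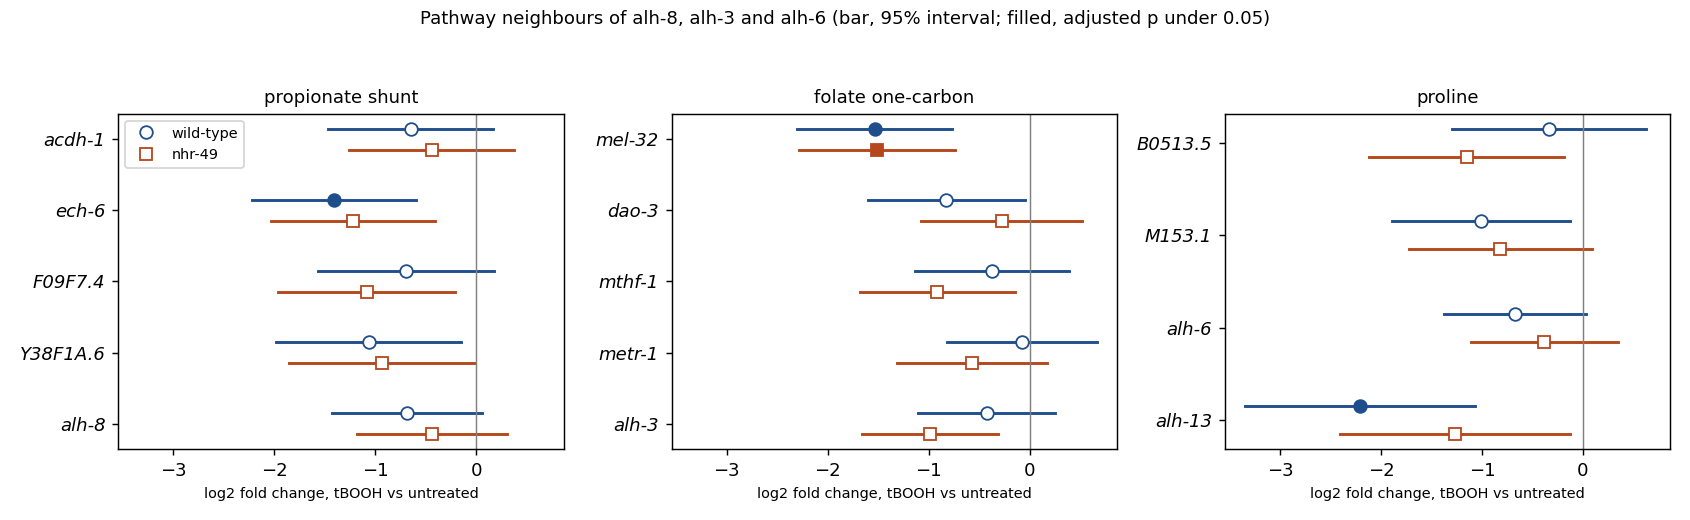
Log2 fold change with tBOOH against untreated, with 95% intervals, for pathway neighbours of alh-8 (left), alh-3 (middle) and alh-6 (right) in wild-type (circles) and nhr-49 worms (squares); filled symbols passed the threshold. mel-32 passed in both genotypes, at -1.53 and -1.52, and ech-6 and alh-13 in wild-type worms alone.

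Enzymes that reduce or divert aldehydes showed few calls. Of 7 aldo-keto reductase genes, Y39G8B.1 fell in wild-type worms, from 95.9 and 92.3 CPM to 30.5 and 33.5 CPM (log2 fold change -1.56, SE 0.35, edgeR adjusted p = 0.000766), and 0 rose. In nhr-49 worms it went from 71.5 and 87.8 CPM to 40.9 and 53.9 CPM (-0.75, SE 0.35, edgeR adjusted p = 0.273). Its call was lost without any 1 wild-type library (edgeR adjusted p from 0.0520 to 0.172). Of 2 measured glyoxalase genes and 2 genes of carnitine synthesis, 0 were called in either genotype. In the averaged response gbh-2, a gamma-butyrobetaine hydroxylase of carnitine synthesis, was called higher, opposite to alh-12 (log2 fold change 1.68, SE 0.44, edgeR adjusted p = 0.0442), and it is named here after its values were seen. It stood at 6.90 and 10.9 CPM without and 35.2 and 31.6 CPM with tBOOH in N2 worms, and at 14.5 and 34.97 CPM without and 32.9 and 105 CPM with tBOOH in the mutants, where the groups overlapped. Its call was lost after thinning (edgeR adjusted p = 0.0524), without any 1 wild-type library (0.122 to 0.165), without the untreated mutant library numbered 1 (0.0793) and without the treated mutant library numbered 3 (1.1 on the log2 scale, 0.0962). T13H5.1 overlaps gbh-2 on the opposite strand. The other gene of carnitine synthesis, gbh-1, was not called and pointed the same way as alh-12. Its mean level went from 20.4 to 15.4 CPM with tBOOH in N2 worms and from 28.3 to 16.4 CPM in the mutants.

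Of 6 other alcohol and polyol dehydrogenase genes, 0 were called in either genotype. The median log2 fold change of the 5 without sodh-2 was 1.74 in N2 and 0.31 in the mutants. The highest estimates in N2 worms, named after their values were seen, were those of R04B5.6 (2.25, SE 0.96, edgeR adjusted p = 0.222), D2063.1 (1.87, SE 0.76, edgeR adjusted p = 0.174) and R04B5.5 (1.74, SE 0.67, edgeR adjusted p = 0.132), which point the same way as sodh-1. In untreated N2 libraries these had few counts, 3 and 5 for R04B5.6, 12 and 5 for D2063.1, and 19 and 23 for R04B5.5. Unlike sodh-1, each had a higher mean level in untreated nhr-49 than in untreated N2 worms. The means were 2.71 against 0.82 CPM for R04B5.6, 5.68 against 1.86 CPM for D2063.1 and 9.51 against 4.39 CPM for R04B5.5, whose libraries overlapped. adh-5 (counted as H24K24.3) and hphd-1 went the other way in N2 worms. Their mean levels went from 74.6 to 55.1 CPM and from 633 to 302 CPM. sodh-2 had 0, 0, 1 and 1 counts in wild-type and 0, 0, 5 and 9 counts in nhr-49 libraries, untreated before treated, and sodh-1 had more counts than sodh-2 in every library. adh-1 overlaps sodh-2 on the opposite strand.

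Markers of intestine and hypodermis moved with tBOOH. The summed level of 6 intestinal genes ran from 3285 to 3786 CPM in untreated and from 803 to 1811 CPM in treated libraries, and none of the 6 was at 0. Most of this sum was act-5 in untreated libraries, at 2311 to 2616 CPM. In every treated library act-5, at 223 to 772 CPM, was below the sum of the other 5 genes. These other genes summed to 916 to 1379 CPM in untreated and 579.7 to 1039 CPM in treated libraries, which overlap across genotypes. Within each genotype the treated libraries were below the untreated ones. act-5, the actin of intestinal microvilli, fell in both genotypes (log2 fold change -2.76, edgeR adjusted p = 0.000554, in wild-type and -2.18, edgeR adjusted p = 0.0109, in nhr-49 worms). In nhr-49 worms ges-1 and pept-1 were also called lower, from mean levels of 120 to 51.7 CPM and of 376 to 94.3 CPM. The intestinal regulator elt-7 was called higher in wild-type worms. The summed level of 5 hypodermal genes was 1896 and 2620 CPM in untreated N2 and 260 and 939 CPM in treated N2 worms, and 4 of the 5 fell there. Among the mutants it was 2113 and 881 CPM without and 854 and 1788 CPM with tBOOH. The part of intestinal and hypodermal content in the lower levels of alh-3, alh-8, alh-9 and alh-12 was not tested.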

How the data were processed

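RNA-seq was performed on whole L4 worms of 4 groups, with 2 biological replicates each, grouped by the genotype and treatment in the labels. Ribosomal RNA was depleted, and reads were aligned by the authors to ce10 with STAR, as the submitters' processing notes name them. The authors deposited raw counts per gene symbol, and a second table of signal values, which are the same counts as TMM-scaled CPM for 14334 genes that exceed 1 CPM in 2 or more libraries. The recomputed values differed from the deposited signal by at most 4.5e-06. The counting program and the use of strand are not given in the sources used here. Totals were 2157766 to 5852727 counts per library.

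Comparisons used edgeR 4.0.16 in R 4.3.3 (exact test, one dispersion per gene from all 8 libraries, Benjamini-Hochberg adjustment), after tests on simulated data. Standard errors and 95% intervals are Wald values from the same dispersions. Interactions and averaged responses were tested by the quasi-likelihood test of edgeR. Alternatives were the quasi-likelihood and likelihood ratio tests, DESeq2 1.42.0, RLE normalization, no filter or a minimum of 10 counts, dispersions of the compared libraries alone, thinning to 2157766 counts, a replicate block, and leaving out each library. Averaged contrasts and leaving out both nhr-49 libraries numbered 3 were added after the data were seen.

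The members and the gene lists were chosen with earlier results of these data known. Named genes are all members, and from each list those called in a main comparison, up to 3 by size of the change; list members named without a call are given by name alone or chosen after their values were seen. Symbols absent from the counts were matched by RefSeq locus tag. Identifiers and chromosomes are from WBcel235, another build than ce10, and no coordinates or sequences are given.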

Additional observations from a re-analysis of the deposited data

Results flagged for a closer look

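The response of alh-1 to tBOOH pointed in opposite directions in the 2 genotypes, which is why it is given here. Both treated wild-type libraries were above both untreated ones, and both treated nhr-49 libraries were below the mean of the untreated ones, although treated and untreated mutant libraries overlapped. The difference between the responses, nhr-49 minus wild-type, was -0.45 on the log2 scale (95% interval -1.41 to 0.51), and its test did not pass the threshold (edgeR quasi-likelihood adjusted p = 1.0). Across the alternatives its adjusted p stayed at or above 0.732.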

How the results depend on the processing

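The number of members called with tBOOH in wild-type worms was 1, where 5.34% of all genes tested were called. It became 2 under DESeq2 (7.23% of all genes tested) and with at least 10 counts in 2 libraries (6.54%). It was also 2 in the quasi-likelihood test with a replicate block (4.35%), and alh-12 was added each time. With dispersions from the 4 libraries compared it became 3, with alh-9 and alh-12 added (16.2%). With tBOOH in nhr-49 worms it was 1, and became 2 under DESeq2, 0 with dispersions from the 4 libraries compared, and 0 to 3 when libraries were left out. For the genotypes without tBOOH it was 1, and became 0 under the quasi-likelihood test, with dispersions from the 4 libraries compared and with the replicate block (sodh-1 adjusted p = 0.0502 by edgeR), and 0 to 1 when libraries were left out. With tBOOH it was 1 in all alternatives, and the interaction called 0 members in all. The mean tBOOH response called 4 members, 1 to 4 when libraries were left out, 3 after thinning (without alh-3), and 5 (with alh-8) under DESeq2, without a filter and with the block. Of all genes tested, 4.63% were called with tBOOH in nhr-49 worms in the main fit, 5.81% under DESeq2 and 1.80% with dispersions from the 4 libraries. Between untreated genotypes 0.998% were called in the main fit, 0.140% under the quasi-likelihood test, 1.03% with those dispersions and 0.398% with the block. The mean tBOOH response called 8.92%, and 13.9% under DESeq2, 11.7% without a filter, 12.2% with the block and 7.38% after thinning. The cause of the changes in members called was not tested.

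Some estimates changed sign, among them ones not near 0, such as the interaction of sodh-1 at -0.75 in the main fit. When libraries were left out, the log2 fold change of alh-4 ran from -0.11 to 0.60 with tBOOH in wild-type worms and from -0.50 to 0.26 between treated genotypes. That of alh-6 ran from -0.31 to 0.22 and that of alh-12 from -0.46 to 0.41 between treated genotypes, and that of alh-9 from -0.73 to 0.24 between untreated genotypes. The interaction ran from -0.023 to 0.80 for alh-4, -0.28 to 0.18 for alh-5, -0.083 to 0.89 for alh-9, -0.22 to 0.59 for alh-12 and -1.44 to 0.23 for sodh-1. alh-12 between treated genotypes was 0.0040 under DESeq2 and 0.0030 under RLE normalization.

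The labels do not say that equal numbers share a batch or day, so the numbers were not taken to pair the samples. Deviations from the group means correlated between same-numbered libraries by -0.04 to 0.32. The library numbered 1 was above the library numbered 3 in all 4 groups for 11.1% of all genes. Whether equal numbers share a batch was not tested. In the quasi-likelihood test the block moved the calls of all genes with tBOOH in wild-type worms from 233 to 624. The exact test, which had no block, called 766. The untreated nhr-49 libraries had the lowest totals, and the 3 and 7 counts of sodh-1 there limit its folds. In tests that left a group with 1 library, that library was assumed to vary like the other groups. Without any 1 wild-type library, fewer of all genes were also called with tBOOH in wild-type worms. Whether the losses given above for ech-6, mel-32 and Y39G8B.1 in wild-type worms are particular to these genes was not tested.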
